A study of Mus musculus with 6 samples.

Results

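The genes described here encode the thick filament, the thin filament and titin with its M-band partners, which together form the contractile apparatus of heart and skeletal muscle. The list held 43 genes. Each was represented by the transcript cluster (the array's unit for 1 gene or transcript group) that carried its symbol alone and, where a gene had several such clusters, by the one with the highest mean signal. They are 43 of 30176 genes with a cluster of their own, among 65956 clusters tested. Every listed gene was found, and no filter on low signals was applied. By the isoform class they are known for, 17 were ventricular cardiac genes, 6 fetal or atrial genes, 15 skeletal muscle genes and 5 broadly expressed genes.

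RNA came from left ventricles of 6 male C57/Bl6 mice, 3 given AAV9-GFP and 3 given AAV9-Rbm24, and each heart was measured on 1 Affymetrix Mouse Transcriptome Array 1.0. All mice were wildtype, received 4000000000000 viral genomes into the abdominal cavity at 1 week of age and were killed 2 weeks later. AAV9 is an adeno-associated virus serotype that preferentially infects heart muscle cells. The AAV9-Rbm24 virus carried the flag-tagged mouse Rbm24 reading frame behind the CMV promoter, which is not restricted to 1 cell type, and the control virus carried GFP, so both groups received virus. Rbm24 is an RNA-binding protein that controls splicing of muscle transcripts.

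A sarcomere shortens when myosin heads of the thick filament pull on actin of the thin filament. Troponin and tropomyosin make that contact depend on calcium, tropomodulin and leiomodin act at the pointed end of the thin filament, and titin spans from the Z-disc to the M-band as a spring. Several of these proteins come in isoforms encoded by separate genes, and the rodent ventricle passes around birth from a fetal to an adult set, part of which can return under load.

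Signals are the deposited log2 values, so a difference of 1 is a doubling. They have no zero or count behind them, levels of different genes cannot be compared, and the number of arrays limits the precision. The median array signal was 5.67 in AAV9-GFP replicate 2 and 5.49 to 5.55 in the other 5 hearts, and AAV9-GFP replicate 2 lay at -64.3 on the first principal component (37.4% of the variance) against -9.74 to 41.4. Among the 14 members with a mean signal under 6, this heart was the highest in 12. Among the 29 members with a mean of at least 6, AAV9-GFP replicate 2 was the lowest heart in 13 and the highest in 1. In the same 29, AAV9-Rbm24 replicate 3 was the highest heart in 8 and the lowest in 8. The Rbm24 cluster read 13.95, 13.63 and 13.57 after AAV9-GFP and 14.58, 14.74 and 15.12 after AAV9-Rbm24. The groups did not overlap there, and the labels matched (log2 fold change 1.10 ± 0.17, standard error, limma adjusted p = 0.0607).

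The promoters of 5 members are shown because their values carry the descriptions that follow: Tmod1, Tnni3 and Myl3 among ventricular genes with lower AAV9-Rbm24 signals, and Mybpc2 and Acta1 among skeletal and fetal genes with higher means. Each run holds the 250 bases before the RefSeq start in mouse build GRCm38.p6, at chr4:46038972-46039221 (plus strand) for Tmod1, chr7:4522529-4522778 (minus strand) for Tnni3, chr9:110763428-110763677 (plus strand) for Myl3, chr7:44524670-44524919 (minus strand) for Mybpc2 and chr8:123894776-123895025 (minus strand) for Acta1. Capitals mark matches, on either strand, to the MCAT motif CATTCC, the MEF2 motif, the CArG box and the TATA box TATAAA, and matches to the E-box CANNTG were left in lower case. No marked matches overlapped in these 5 runs.
Tmod1: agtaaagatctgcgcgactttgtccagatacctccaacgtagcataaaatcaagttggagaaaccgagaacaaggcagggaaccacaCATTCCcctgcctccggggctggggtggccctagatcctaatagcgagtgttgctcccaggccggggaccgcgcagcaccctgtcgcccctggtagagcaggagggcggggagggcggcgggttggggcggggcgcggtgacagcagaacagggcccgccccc
Tnni3: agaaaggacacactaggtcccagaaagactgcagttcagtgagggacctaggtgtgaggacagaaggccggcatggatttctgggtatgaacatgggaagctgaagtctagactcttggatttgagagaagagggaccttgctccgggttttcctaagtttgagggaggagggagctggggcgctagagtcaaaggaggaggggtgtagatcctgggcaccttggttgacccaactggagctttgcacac
Myl3: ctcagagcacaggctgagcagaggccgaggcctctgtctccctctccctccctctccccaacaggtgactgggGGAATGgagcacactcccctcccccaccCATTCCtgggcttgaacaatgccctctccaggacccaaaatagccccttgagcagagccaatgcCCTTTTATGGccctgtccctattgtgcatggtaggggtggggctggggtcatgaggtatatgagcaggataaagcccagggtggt
Mybpc2: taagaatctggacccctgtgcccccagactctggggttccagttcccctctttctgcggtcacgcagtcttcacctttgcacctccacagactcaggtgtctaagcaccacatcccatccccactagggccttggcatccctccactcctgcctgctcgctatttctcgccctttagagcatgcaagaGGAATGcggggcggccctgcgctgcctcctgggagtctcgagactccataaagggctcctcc
Acta1: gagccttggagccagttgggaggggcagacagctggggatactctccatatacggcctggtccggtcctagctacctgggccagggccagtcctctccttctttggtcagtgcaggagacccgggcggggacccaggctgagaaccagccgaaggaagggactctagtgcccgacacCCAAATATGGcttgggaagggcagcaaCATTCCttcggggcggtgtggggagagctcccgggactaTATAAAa

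The MCAT motif, which TEAD factors bind, occurred in the promoters of Tmod1, Mybpc2 and Acta1 and 2 times in that of Myl3, on opposite strands. The CArG box, bound by serum response factor, occurred in Acta1 and Myl3. Acta1 also had a TATA box from 7 to 2 bases before the start, and Tnni3 had an E-box alone. RefSeq promoters were found for 38 of the 43 members (47 promoters, since some genes have several starts). Of these promoters, 17.0% held a CArG box against 1.47% of all 32851 promoters of the same length, 31.9% held MCAT against 12.6%, 12.8% held MEF2 against 2.92%, 17.0% held TATA against 12.4%, and 76.6% held an E-box against 66.2%. A match is a description of letters, not of a bound site.

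Most of the 43 genes read nearly alike in both groups, and none passed the test after adjustment. With limma and Benjamini-Hochberg adjustment over all clusters, 0 members had an adjusted p under 0.05, where 0.267% of all clusters did, and the smallest member value was adjusted p = 0.349. The unadjusted limma p was under 0.05 for 4 members (9.3%), against 8.41% of all clusters. These were Tpm3 and Mybpc2, with higher means in AAV9-Rbm24 hearts, and Tmod1 and Lmod3, with lower means. The methods' analysis of variance, run cluster by cluster on the same values, gave an unadjusted p under 0.05 for 6 members, where 7.91% of all clusters had one. After adjustment it called 0 of all 65956 clusters, so its count of 0 members says nothing particular about them. The fold and p thresholds of the methods (1.5-fold and unadjusted p under 0.05) were applied with the limma p. By them 1 member passed, Mybpc2, against 1.78% of all clusters, and 0 members passed with the p of the analysis of variance. The median log2 fold change of the members was -0.05, beside -0.03 over all clusters, and 27 members had the lower mean in AAV9-Rbm24 hearts against 16 with the higher. The 16 include Actc1, which sits at the array ceiling, and without it the counts were 27 and 15 and the median stayed at -0.05.

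The hearts were also read by separation, that is, every heart of one group beyond every heart of the other. All 3 AAV9-Rbm24 hearts lay below all 3 AAV9-GFP hearts for 7 members (16.3%), against 7.71% of all clusters. They lay above for 3 members (6.98%), against 7.01% of all clusters. All 7 lower members had a mean signal of at least 8, and among the 25 members that bright the share was 28.0%, against 7.51% of clusters that bright. The count depends on the scaling of the arrays. After each array was centred on its median, 2 members were lower and 4 higher, where 6.18% and 7.14% of all clusters were, and of the 7 only Tmod1 was still lower in every heart. After a renewed quantile normalization, 10 were lower, all 7 among them, and 4 higher, where 7.76% and 8.11% of all clusters were. The size of each difference is small: Tmod1 had the largest of the 7, at -0.35.

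**Figure D1:**
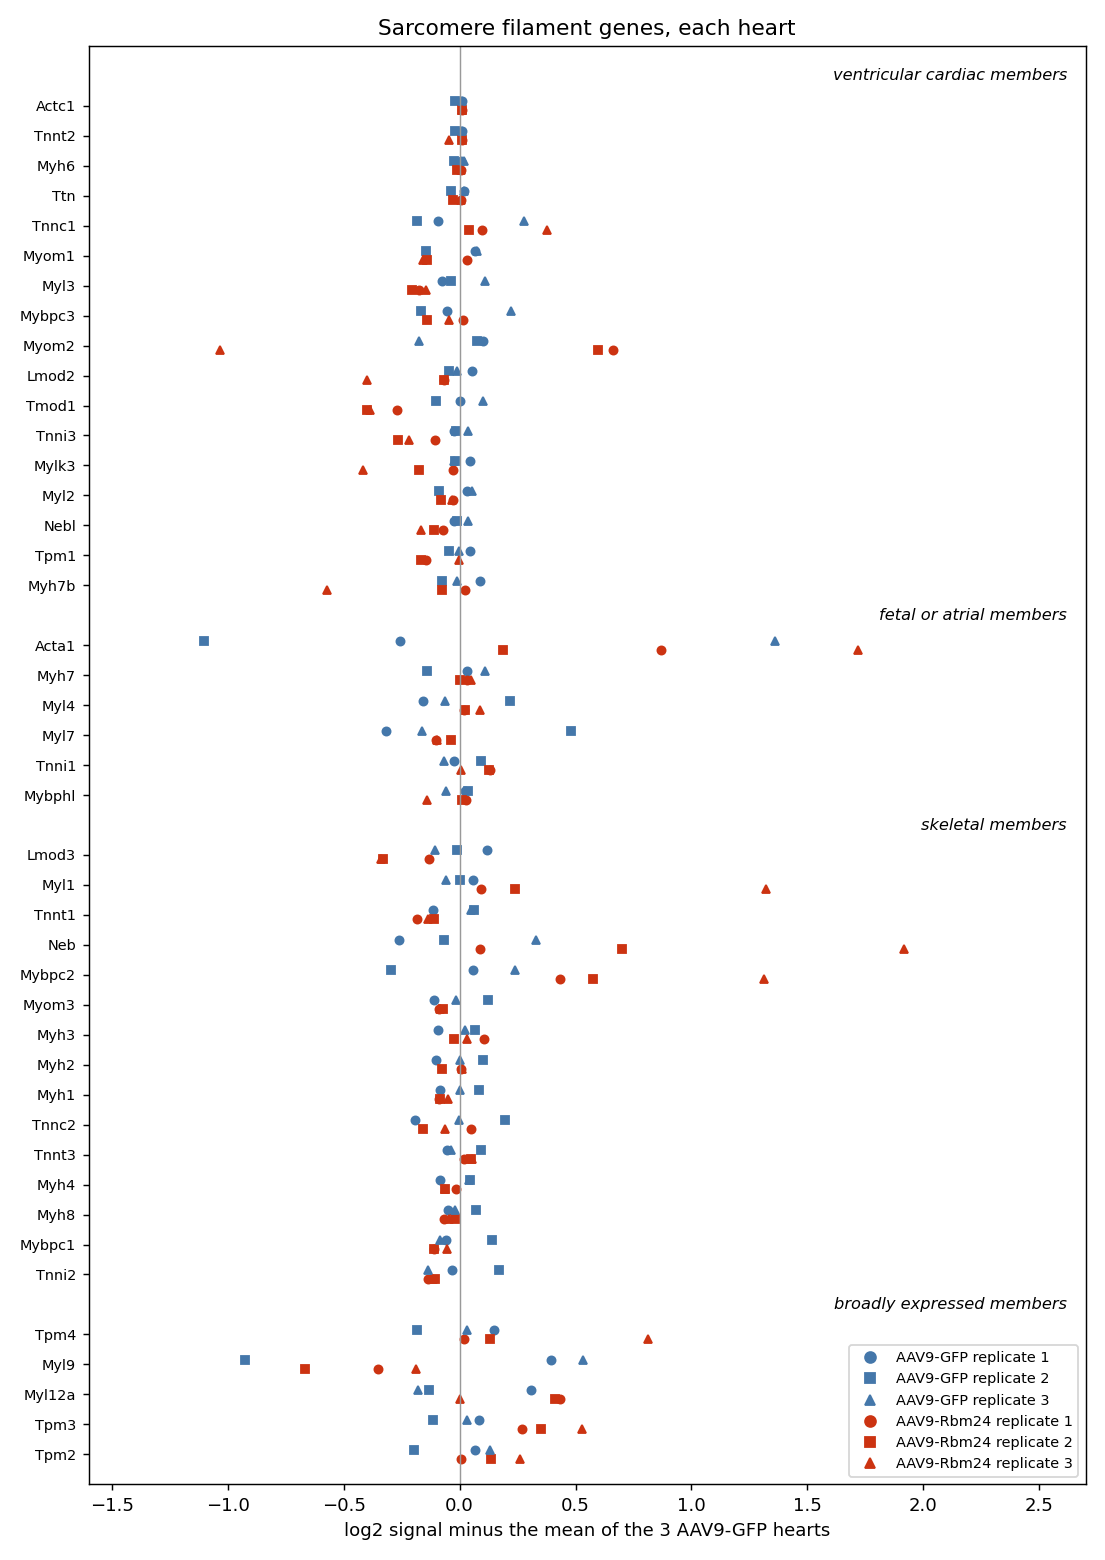
Each row is 1 of the 43 genes, grouped by class, and each point 1 heart, placed on the x axis at its log2 signal minus the mean of the 3 AAV9-GFP hearts (blue AAV9-GFP, red AAV9-Rbm24). Most points lie near 0, Acta1, Myl9 and Myl7 spread widely among the AAV9-GFP hearts, and AAV9-Rbm24 replicate 3 lies apart in Neb, Myl1, Mybpc2 and Myom2.

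The heavy chains of myosin, the motor of the thick filament, showed no difference between the groups that these arrays could resolve. Myh6 encodes alpha-myosin, the main heavy chain of the adult mouse ventricle, and read 19.80, 19.77 and 19.82 in AAV9-GFP hearts and 19.80, 19.78 and 19.80 in AAV9-Rbm24 hearts. These values lie 0.115 to 0.149 below the highest signal of their array, so the scale left little room for any increase. Myh7 encodes beta-myosin, the fetal ventricular chain, and read 11.98, 11.80 and 12.05 against 11.98, 11.95 and 11.99. All 3 AAV9-Rbm24 hearts fell inside the AAV9-GFP range, and the 95% interval of the log2 fold change ran from -0.21 to 0.27 (limma adjusted p = 0.972). Myh7b, a slow myosin gene of heart and slow muscle that hosts a microRNA, read 9.20 to 9.36 in AAV9-GFP hearts and 9.30, 9.20 and 8.71 in AAV9-Rbm24 hearts, with the low value in replicate 3. The skeletal and developmental chains Myh1, Myh2, Myh3, Myh4 and Myh8 had group means of 5.32 to 5.96, close to the median cluster (5.54), and log2 fold changes of -0.07 to 0.04. These 5 genes lie next to each other on chromosome 11 in RefSeq, Myh6 and Myh7 next to each other on chromosome 14, and probes of such close relatives may share transcripts.

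The light chains stabilise the myosin neck. Myl3, the ventricular essential light chain, read 16.62, 16.66 and 16.81 in AAV9-GFP hearts and 16.52, 16.49 and 16.55 in AAV9-Rbm24 hearts. Every AAV9-Rbm24 heart was below every AAV9-GFP heart, with a log2 fold change of -0.18 ± 0.10 (standard error) and limma adjusted p = 0.693. Myl2, the ventricular regulatory light chain, read 13.70, 13.58 and 13.72 against 13.64, 13.59 and 13.64. The groups overlapped, and the 95% interval of the log2 fold change was -0.27 to 0.17. Mylk3, the cardiac kinase that phosphorylates the regulatory light chain, read 14.31, 14.25 and 14.24 against 14.24, 14.09 and 13.85. The nearest hearts of the groups read the same as rounded here, and the lowest heart was AAV9-Rbm24 replicate 3 (log2 fold change -0.21 ± 0.12, limma adjusted p = 0.710, and -0.10 without that heart).

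The atrial light chains, which the fetal ventricle also makes, stayed near the dim end of the scale in both groups. Myl4 read 5.65, 6.02 and 5.74 in AAV9-GFP hearts and 5.82, 5.83 and 5.89 in AAV9-Rbm24 hearts. Myl7 read 5.12, 5.92 and 5.27 against 5.34, 5.40 and 5.34. In both genes AAV9-GFP replicate 2, the array with the highest median, was the top heart, and the other hearts lay close together. Mybphl, an atrial relative of myosin-binding protein C, had group means of 4.43 and 4.39, below the median cluster.

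Myl1, the fast skeletal essential light chain, read 9.74, 9.68 and 9.62 in AAV9-GFP hearts and 9.77, 9.92 and 11.00 in AAV9-Rbm24 hearts. The AAV9-Rbm24 hearts were all higher, but replicate 3 stood far above the rest, and without it the log2 fold change went from 0.55 to 0.17 (limma adjusted p = 0.680 with all hearts). The smooth and non-muscle regulatory light chains differed in direction. Myl12a read 10.33, 9.89 and 9.84 against 10.46, 10.43 and 10.02, with overlapping groups and a log2 fold change of 0.28 ± 0.17 (adjusted p = 0.726). Myl9, which smooth muscle uses, had group means of 10.54 and 10.14 and its lowest heart was AAV9-GFP replicate 2 at 9.62. Without that heart its log2 fold change went from -0.40 to -0.86 (limma adjusted p = 0.226), with every AAV9-Rbm24 heart lower.

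Myosin-binding protein C tunes the approach of myosin heads to actin. The cardiac gene Mybpc3 had group means of 16.60 and 16.54, with a 95% interval of the log2 fold change from -0.35 to 0.23. The fast skeletal gene Mybpc2 read 6.58, 6.22 and 6.76 in AAV9-GFP hearts and 6.95, 7.10 and 7.83 in AAV9-Rbm24 hearts. All AAV9-Rbm24 hearts were higher, by 1.71-fold on the means (log2 fold change 0.78, 95% interval 0.21 to 1.34, limma adjusted p = 0.398). Replicate 3 was again the highest, and without it the log2 fold change was 0.51. The slow skeletal gene Mybpc1 had group means of 5.07 and 4.98.

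**Figure D2:**
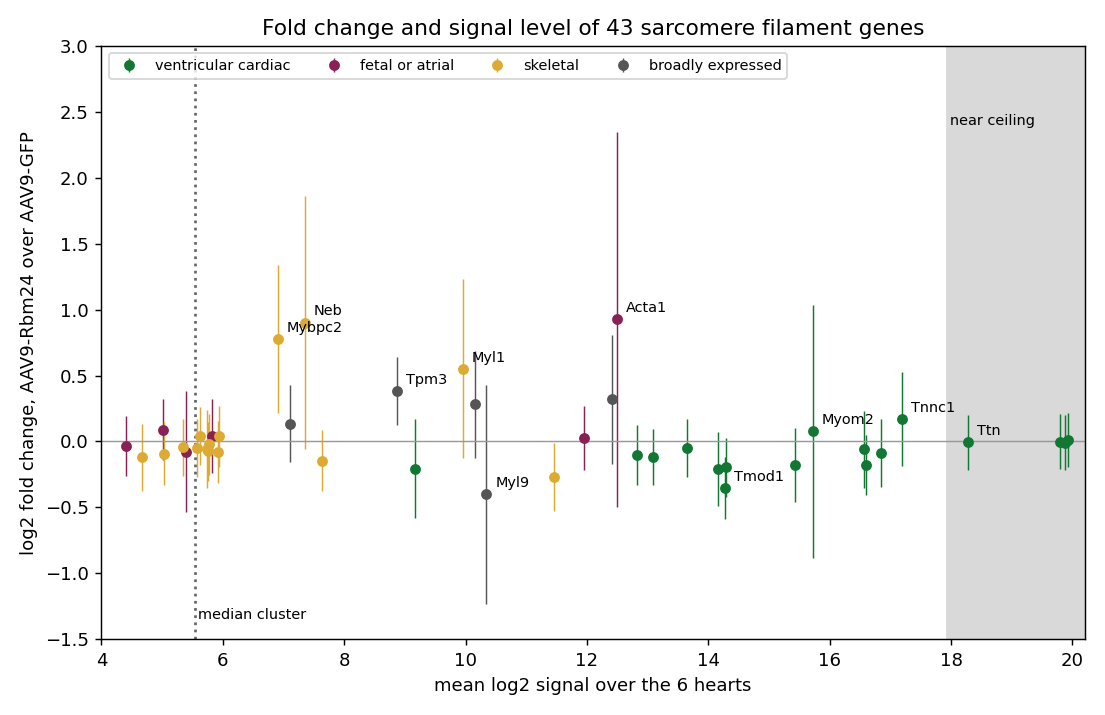
Each point is 1 member gene, with the mean log2 signal over the 6 hearts on the x axis and the log2 fold change (AAV9-Rbm24 over AAV9-GFP) with its 95% limma interval on the y axis. Points near 5.54, the dotted median cluster, and those in the grey area from 17.93 upward lie near 0, while Neb, Acta1 and Myom2 have the wide intervals of genes that varied between hearts.

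In the thin filament, the cardiac actin gene could not be compared at all. Actc1 followed the highest signal of every array within 0.005 (group means 19.92 and 19.93), as did 39 clusters in all, and its differences are not interpreted. Acta1, the skeletal alpha-actin that the fetal heart also makes, read 11.78, 10.94 and 13.40 in AAV9-GFP hearts and 12.91, 12.23 and 13.76 in AAV9-Rbm24 hearts. The groups overlapped, since AAV9-GFP replicate 3 exceeded 2 of the AAV9-Rbm24 hearts. The log2 fold change of 0.93 had a 95% interval of -0.50 to 2.35 (limma adjusted p = 0.745), and it was 1.61 without AAV9-GFP replicate 3 and 0.37 without AAV9-GFP replicate 2. Nppa, the natriuretic peptide gene that marks stressed ventricle, read 15.76, 15.03 and 17.56 with AAV9-GFP, where replicate 3 was also the highest and replicate 2 the lowest, and 18.58, 18.81 and 19.23 with AAV9-Rbm24. Its part in the Acta1 values was not tested.

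The troponin subunits give the filament its response to calcium. Tnni3, the cardiac inhibitory subunit, read 14.36, 14.37 and 14.42 in AAV9-GFP hearts and 14.28, 14.12 and 14.17 in AAV9-Rbm24 hearts. Every AAV9-Rbm24 heart was lower, by 0.873-fold on the means (log2 fold change -0.20, 95% interval -0.42 to 0.03, limma adjusted p = 0.648). Tnni1, the slow skeletal and fetal cardiac form, read 4.95, 5.07 and 4.91 against 5.11, 5.10 and 4.98, below the median cluster throughout. Tnnc1, the cardiac calcium-binding subunit, had group means of 17.11 and 17.28 with overlapping hearts. Tnnt2, the cardiac tropomyosin-binding subunit, had means of 19.88 and 19.87, 0.039 to 0.095 below the array maximum, and its scale too left no room for an increase. The skeletal subunits Tnnc2, Tnni2 and Tnnt3 had group means of 4.62 to 5.77 and log2 fold changes of -0.12 to 0.04, and Tnnt1, the slow skeletal form, had 7.70 and 7.56. In RefSeq, Tnnt1 and Tnni3 are neighbours on chromosome 7, and Tnni1 and Tnnt2 have 1 protein-coding gene between them on chromosome 1.

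Among the tropomyosins, which lie along actin, the broadly expressed genes had the higher means and the cardiac gene did not. Tpm3, made by slow muscle and non-muscle cells, read 8.76, 8.56 and 8.71 in AAV9-GFP hearts and 8.94, 9.03 and 9.20 in AAV9-Rbm24 hearts. All AAV9-Rbm24 hearts were higher (log2 fold change 0.38, 95% interval 0.12 to 0.64, limma adjusted p = 0.354), and the log2 value stayed between 0.31 and 0.44 when any 1 heart was left out. Tpm4, a non-muscle form, read 12.08 to 12.41 in AAV9-GFP hearts and 12.28, 12.39 and 13.07 in AAV9-Rbm24 hearts, with the high value in replicate 3. Tpm2 had means of 7.04 and 7.18. Tpm1, the main cardiac tropomyosin gene, had means of 12.88 and 12.78 and a 95% interval of the log2 fold change from -0.33 to 0.12.

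The remaining thin filament members act at the pointed end or along the length of the filament, and they did not share a direction. Tmod1, the tropomodulin that caps the pointed end, read 14.46, 14.35 and 14.56 in AAV9-GFP hearts and 14.19, 14.06 and 14.07 in AAV9-Rbm24 hearts. The gap between the nearest hearts of the groups exceeded the SD of either group (0.10 and 0.07), at a log2 fold change of -0.35 (0.783-fold, 95% interval -0.59 to -0.11, limma adjusted p = 0.349). It stayed between -0.40 and -0.30 when any 1 heart was left out. Lmod3, a leiomodin best known from skeletal muscle, read 11.70, 11.57 and 11.48 against 11.45, 11.25 and 11.24. All AAV9-Rbm24 hearts were lower, though the nearest hearts of the groups differed by little (log2 fold change -0.27 ± 0.11, limma adjusted p = 0.577).

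Lmod2, the cardiac leiomodin, and Nebl, the cardiac nebulin relative nebulette, are named here after their values were seen. Lmod2 read 15.58, 15.48 and 15.51 in AAV9-GFP hearts and 15.45, 15.46 and 15.12 in AAV9-Rbm24 hearts. Nebl read 13.13, 13.14 and 13.19 against 13.08, 13.04 and 12.99. Both were lower in every AAV9-Rbm24 heart, at log2 fold changes of -0.18 and -0.12 with limma intervals that include 0, and Lmod2 was at -0.07 without AAV9-Rbm24 replicate 3. Neb, the giant nebulin of skeletal thin filaments, read 6.64, 6.83 and 7.23 in AAV9-GFP hearts and 6.99, 7.60 and 8.82 in AAV9-Rbm24 hearts. The groups overlapped, and the log2 fold change of 0.90 (95% interval -0.06 to 1.86, adjusted p = 0.624) was 0.39 without AAV9-Rbm24 replicate 3.

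**Figure D3:**
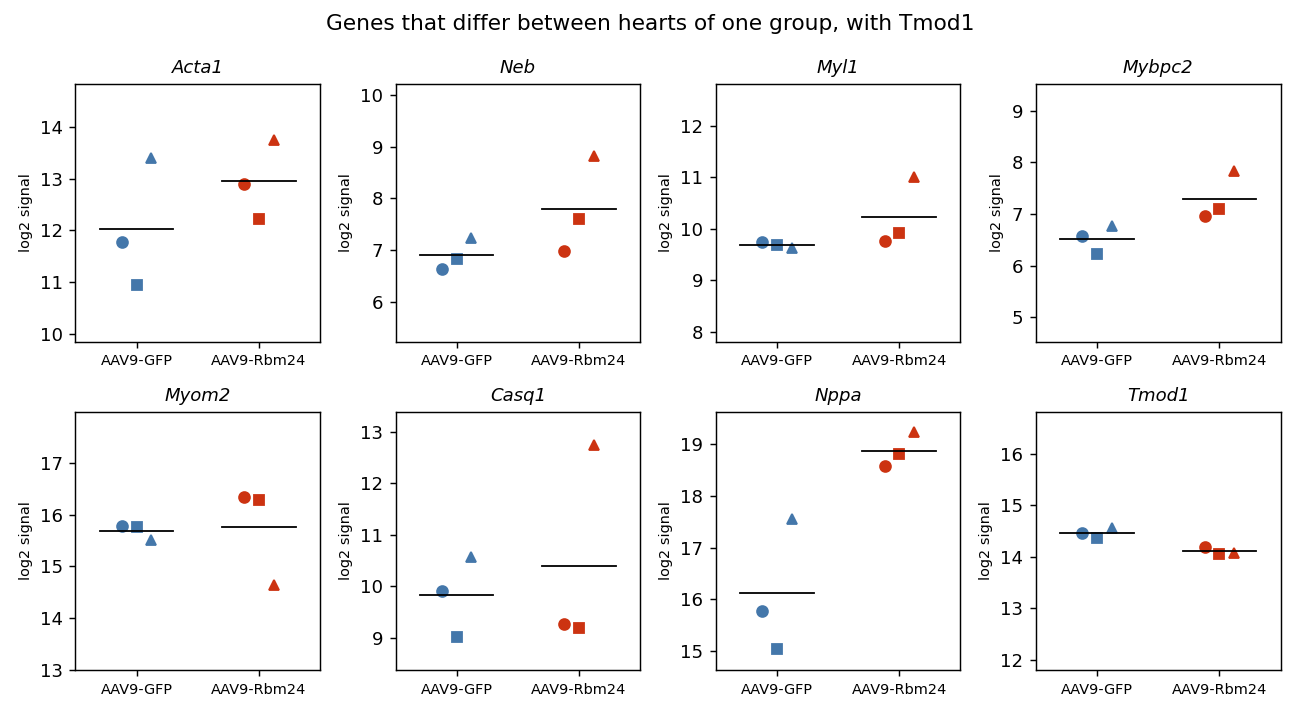
Log2 signals (y axis) in each of the 6 hearts for 6 member genes and for Casq1 and Nppa, with circles, squares and triangles for replicates 1, 2 and 3 and lines for the group means. The triangle of AAV9-Rbm24 replicate 3 is the highest point for Neb (8.82), Myl1, Mybpc2 and Casq1 (12.75) and the lowest for Myom2 (14.65), while the Tmod1 groups lie apart with little spread.

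Titin itself did not differ measurably. Ttn read 18.30, 18.24 and 18.30 in AAV9-GFP hearts and 18.29, 18.25 and 18.29 in AAV9-Rbm24 hearts. The groups lay on top of each other, with a 95% interval of the log2 fold change from -0.21 to 0.20, but the signal is within 2 log2 units of the array maximum, where differences may be compressed. Gene-level signals also say nothing of which titin exons were used.

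The myomesins link titin and myosin at the M-band. Myom1 had means of 16.89 and 16.80, and Myom3, the slow skeletal form, 5.96 and 5.88. Myom2, picked out after its values were seen, read 15.78, 15.76 and 15.51 in AAV9-GFP hearts and 16.34, 16.28 and 14.65 in AAV9-Rbm24 hearts. AAV9-Rbm24 replicates 1 and 2 were the highest of the 6 hearts and replicate 3 was the lowest. With all hearts the log2 fold change was 0.08 ± 0.41 (limma adjusted p = 0.982), and without AAV9-Rbm24 replicate 3 it was 0.63 (limma adjusted p = 0.232).

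By class, the 17 ventricular genes had a median log2 fold change of -0.09, with 14 lower and 3 higher means, and without Actc1 a median of -0.10 with 14 lower and 2 higher. Of the 17, 6 were lower in every AAV9-Rbm24 heart (Myl3, Mylk3, Tnni3, Tmod1, Lmod2 and Nebl), beside 7.71% of all clusters, and after centring on the array median only Tmod1 of these 6 was. The ventricular median lay between -0.14 and -0.05 when any 1 heart was left out. The 6 fetal or atrial genes had a median of 0.04 and no separation of the groups. Without AAV9-GFP replicate 2 the median was 0.14, and Myl4, Myl7 and Tnni1 were higher in every AAV9-Rbm24 heart, where 14.8% of all clusters were. The 15 skeletal genes had a median of -0.05, which was -0.0095 without AAV9-GFP replicate 2 and -0.089 without AAV9-GFP replicate 1. Mybpc2 and Myl1 were higher and Lmod3 lower in every AAV9-Rbm24 heart, where 7.01% and 7.71% of all clusters were. The 5 broadly expressed genes had a median of 0.28, which was 0.07 without AAV9-Rbm24 replicate 3. Of these 5, Tpm3 alone was separated, on the higher side, where 7.01% of all clusters were. In these whole-ventricle samples, fewer heart muscle cells and less RNA per cell cannot be told apart.

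Of the markers of other cells, the fibroblast and macrophage lists moved with the groups. The endothelial and smooth muscle lists did not, with median log2 fold changes of 0.01 and 0.02. Of the 7 smooth muscle and pericyte markers, Smtn was lower (-0.30) and Pdgfrb higher (0.14) in every AAV9-Rbm24 heart. The shares of all clusters were 7.71% lower and 7.01% higher. Of 7 fibroblast markers, 6 were higher in every AAV9-Rbm24 heart, where 7.01% of all clusters were. The adjusted test was passed by 3, where 0.267% of all clusters passed, and the list median log2 fold change was 2.23. Single genes ranged from -0.03 (Tcf21) through 0.68 (Dcn) to 3.03 (Postn). Their summed log2 level, to which the brightest gene Dcn adds most, was 16.15 to 16.35 in AAV9-GFP hearts and 17.16 to 17.51 in AAV9-Rbm24 hearts. All 6 macrophage markers were higher in every AAV9-Rbm24 heart and 4 passed, beside the same shares of all clusters. Their summed level was 12.20 to 13.08 against 14.95 to 16.32. Of 12 heart muscle genes outside the filaments, Ryr2, Hrc and Tcap were lower in every AAV9-Rbm24 heart, where 7.71% of all clusters were, and none passed the adjusted test. Their sum was 21.53 to 21.60 against 21.50 to 21.57, but 4 of the 12 lie near the ceiling and make up most of it. Without those 4 (Atp2a2, Fabp3, Actn2 and Myoz2) it was 19.56 to 19.75 against 19.45 to 19.57. The endothelial sum was 15.64 to 15.88 against 15.65 to 15.70, and the smooth muscle sum 17.24 to 17.97 against 17.45 to 17.90. The part of these shifts in the member values was not tested.

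Markers were also read for the skeletal members and the atrial ones. Of 8 skeletal muscle markers, 5 were dim, with Mylpf at 4.65 to 4.76 and Atp2a1 at 5.02 to 5.17. Casq1, the calcium store protein of fast muscle, read 9.90, 9.02 and 10.57 in AAV9-GFP hearts and 9.26, 9.19 and 12.75 in AAV9-Rbm24 hearts, so that its highest heart was the one that led Neb, Myl1 and Mybpc2. In the same list Pvalb and Myf6 were lower in every AAV9-Rbm24 heart (log2 fold changes -0.28 and -0.24), where 7.71% of all clusters were. Actn3 was higher in every one, by 0.10, where 7.01% of all clusters were, and the list median was -0.01. The summed skeletal level was 9.67 to 10.81 against 9.73 to 12.80, and its part in those values was not tested. The atrial sum was 15.11 to 17.58 against 18.59 to 19.24, carried by Nppa. Of the 6 atrial markers, Nppa and Dkk3 (log2 fold change 0.55) were higher in every AAV9-Rbm24 heart, where 7.01% of all clusters were. Gja5, Stk39 and Sln had lower means (-0.16, -0.28 and -0.03), and Bmp10 had a higher one (0.14). Sln, which marks atrial muscle, read 5.28 to 5.73 over the 6 hearts.

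Fetal, atrial or skeletal genes, and Tpm2 from the broadly expressed class, were then set against their cardiac partners within each heart. The difference of the 2 log2 signals was taken, and its change between the groups was tested for 16 pairs. The exact two-sided permutation test cannot go below p = 0.1 with 3 against 3 hearts. In 4 of the 16 pairs the groups did not overlap, where 14.7% of single clusters did not, in either direction. All 4 had the ratio higher in AAV9-Rbm24 hearts (exact p = 0.1 each, 0.4 after adjustment over the 16 pairs). The changes were 0.83 for Mybpc2 over Mybpc3, 0.73 for Myl1 over Myl3, 0.28 for Tnni1 over Tnni3 and 0.24 for Tpm2 over Tpm1. When any 1 heart was left out, these changes were 0.57 to 1.04, 0.36 to 0.96, 0.23 to 0.34 and 0.16 to 0.30. Tnni1 is dim, and of its ratio's change 0.09 came from Tnni1 and the rest from Tnni3. Mybpc2 and Myl1, separated on their own as well, had log2 fold changes of 0.78 and 0.55. Tpm2, whose groups overlapped, had 0.13.

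The pair read most often for a fetal pattern, Myh7 over Myh6, changed by 0.03 (exact p = 0.8), with Myh6 near the ceiling. Acta1 over Actc1 changed by 0.92 (exact p = 0.4), and with Actc1 at the ceiling this is the change of Acta1 alone. Neb over Nebl changed by 1.02 (exact p = 0.2), and by 0.49 without AAV9-Rbm24 replicate 3. Myl4 over Myl3 changed by 0.22 (exact p = 0.4) and Myl7 over Myl2 by -0.03 (exact p = 1.0). Without AAV9-GFP replicate 2 these changes were 0.35 and 0.25, both without overlap, where 27.6% of single clusters had none. Without AAV9-GFP replicate 1 Myl7 over Myl2 changed by -0.20. The other 7 pairs changed by -0.23 to 0.08 and overlapped. Of the 16 pairs, 4 had the cardiac partner near the ceiling and 4 had a dim fetal or skeletal gene.

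**Figure D4:**
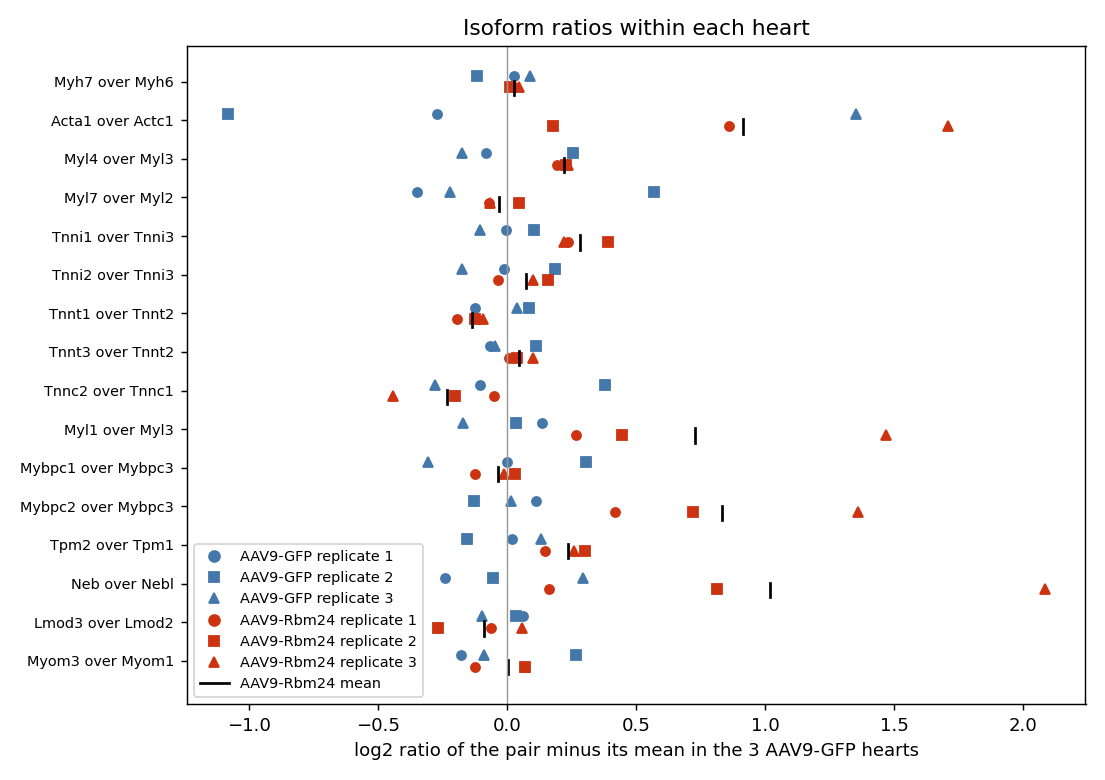
For each of the 16 pairs, the log2 ratio of the fetal, atrial or skeletal gene, or of Tpm2, to its cardiac partner in each heart. The mean ratio of the 3 AAV9-GFP hearts is subtracted, and a black line marks the AAV9-Rbm24 mean. Mybpc2 over Mybpc3, Myl1 over Myl3, Tnni1 over Tnni3 and Tpm2 over Tpm1 are the pairs without overlap, with means at 0.83, 0.73, 0.28 and 0.24, and the mean of Myh7 over Myh6 lies at 0.03.

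A separate list was also counted. It held other genes of the same families, smooth muscle and non-muscle forms among them, and genes that assemble, anchor or sense the filaments. Of its 44 genes 40 had a cluster of their own, and 2 rose and 0 fell at an adjusted p under 0.05 (5.0%, against 0.267% of all clusters). The unadjusted limma p was under 0.05 for 6 with the higher mean and 5 with the lower (27.5%, against 8.41%). Ankrd1, a stretch-responsive protein that binds titin's N2A region, read 18.18, 17.52 and 17.79 in AAV9-GFP hearts and 19.38, 19.43 and 19.42 in AAV9-Rbm24 hearts (log2 fold change 1.58 ± 0.16, limma adjusted p = 0.0217). Its mean over the 6 hearts is near the ceiling, as are all 3 AAV9-Rbm24 values. Hsp90aa1, a chaperone that works on folding myosin, read 12.14, 11.61 and 12.00 against 13.30, 13.23 and 13.39 (1.39 ± 0.15, adjusted p = 0.0222). In both genes the gap between the groups exceeded the range within either. Xirp2, an actin-binding protein of the intercalated disc, differed by 0.81 on the log2 scale (adjusted p = 0.0606).

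On the lower side of that list, 4 of the 40 genes were below every AAV9-GFP heart in all AAV9-Rbm24 hearts, against 7.71% of all clusters. These were Tmod4, Smyd1, Fhl2 and Tcap. Their log2 fold changes were -0.45, -0.32, -0.52 and -0.68, with limma adjusted p from 0.149 to 0.541. Above every AAV9-GFP heart lay 5 of the 40, against 7.01% of all clusters. They were Ankrd1, Hsp90aa1, Xirp2, Hspb7 and Ankrd23 (log2 fold change 1.47 for Ankrd23, limma adjusted p = 0.231). Hspb7 is near the ceiling, and its nearest hearts read the same as rounded here, at 18.28 (log2 fold change 0.12, limma adjusted p = 0.819). Smyd1 is a methyltransferase needed for myosin assembly, and Tcap (telethonin) caps titin at the Z-disc. The median over the 40 genes was -0.04, beside -0.03 over all clusters.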

How the data were processed

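The values are log2 signals for each transcript cluster on each array, which the authors made with RMA (background correction, normalization between arrays and summary of probes). The submitters' processing notes name Affymetrix Expression Console. Neither its version nor a genome build is given in the sources used here. Of 72688 deposited entries, 6732 controls were left out. Symbols came from the platform annotation: 30638 clusters had 1, 2176 several and 33142 none.

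Groups came from the labels, which name 6 separate hearts, and the comparison used limma 3.58.1 (R 4.3.3) over all 65956 clusters (Benjamini-Hochberg, 0.05). The 16 isoform ratios were tested by exact permutation over hearts (scipy 1.17.1). A cluster was called at the ceiling within 0.005 of each array's maximum, near the ceiling within 2 log2 units of the mean maximum (307 clusters), and dim where both group means lay below the median cluster. Values in every heart are given for the genes of the fetal and cardiac pairs, Ttn, genes past a threshold and the 10 with the smallest limma p (19 in all). The members and lists were chosen with earlier results of these data known. The procedure was tested on simulated data.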

Additional observations from a re-analysis of the deposited data

How the results depend on the processing

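No member passed at an adjusted p under 0.05 under any alternative run, and the smallest adjusted p lay between 0.135 (renewed quantile normalization) and 0.628 (without AAV9-Rbm24 replicate 2). The number past the fold and p thresholds of the methods, 1 with all hearts as deposited, was 0 with a minimum mean signal of 8 and 0 by the methods' analysis of variance, and 1 to 3 when 1 heart was left out. The members without overlap, 10 of 43, numbered 6 after centring on the array median and 11 to 19 when 1 heart was left out, where fewer hearts make separation easier (22.4% to 27.6% of all clusters). The median log2 fold change of -0.05 was -0.0085 with a minimum signal of 6, -0.022 after quantile normalization, -0.020 after centring, and -0.064 to -0.019 when 1 heart was left out. Of the isoform pairs without overlap, 4 with all hearts as deposited, 3 remained at a minimum signal of 6 and 1 at a minimum of 8. The minimum of 8 also drops Mybpc2 and Tpm2, which are not dim as defined above. When 1 heart was left out, 4 to 7 pairs did not overlap, where 22.4% to 27.6% of single clusters did not.

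Of 331 single-gene values, 316 kept their direction and side of the threshold and 15 changed sign. The largest of the changed values was that of Myl7, at 0.16 without AAV9-GFP replicate 2. Ttn was 0.014 after quantile normalization and 0.019 after centring, and -0.025 to 0.0050 when 1 heart was left out. Myh6 was 0.024 after centring and -0.014 to 0.0088 when 1 heart was left out. Myh7 was -0.051 after quantile normalization and -0.019 with array weights, and -0.044 to 0.082 when 1 heart was left out. Myl7 was 0.088 with array weights, and Myl7 and Myl4 ranged from -0.24 to 0.16 and from -0.034 to 0.15 when 1 heart was left out. The causes were not tested.

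The replicate numbers were shared between the groups. Same-numbered hearts deviated together weakly (r = 0.03, 0.10 and 0.15), beside -0.12 to 0.03 for hearts of different number. AAV9-Rbm24 replicate 1 alone correlated best with another number (0.033 with AAV9-GFP replicate 2 against 0.027 with AAV9-GFP replicate 1). The cause was not tested. With a replicate block, 0 members were called after adjustment, 3 passed the fold and p thresholds, and 83 clusters were called in place of 176. Leaving each heart out of the list medians and isoform ratios, the share among clusters with a signal of at least 8, and leaving out Actc1 or bright markers were added after seeing the data.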
